A study of Mus musculus with 5 samples.

Results

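Phosphodiesterases and the adenylate and guanylate cyclases set the levels of the cyclic nucleotides, and their genes were followed here in newborn mouse atria in which the homeodomain factor Nkx2-5 was deleted by a Cre recombinase. The genes were the protein-coding rows of the deposited table whose symbols begin with Pde, Adcy or Gucy and a family number, leaving out Gucy2e. The rule gave 44 of the 40624 rows, under 43 symbols, because Pde4d has a main entry and a second, short entry downstream of it. By role they were 22 rows of catalytic phosphodiesterases, 10 adenylate cyclases, 8 guanylate cyclases or their subunits and 3 accessory subunits (Pde6d, Pde6g and Pde6h). The remaining row, Pde4dip, encodes a centrosome and Golgi scaffold that is not itself a phosphodiesterase.

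Adenylate cyclases make cyclic AMP when G protein-coupled receptors are engaged, and guanylate cyclases make cyclic GMP in response to nitric oxide or peptide ligands. Phosphodiesterases hydrolyse both messengers, and the families differ in which messenger they prefer and in whether calcium and calmodulin or cyclic GMP regulates them. In heart muscle cyclic AMP acts through protein kinase A on pacemaking, calcium handling and contraction, while cyclic GMP acts through protein kinase G.

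The mutant group (n = 2, libraries 5 and 7) carried SLN-Cre with both Nkx2-5 alleles floxed, and the control group (n = 3, libraries 2, 4 and 6) carried SLN-Cre with 1 floxed and 1 wild-type allele. All were C57BL/6 atria at postnatal day 1, and the controls therefore had the same Cre and a single copy of Nkx2-5 in the cells where the Cre was active. The Cre is named for Sln, the gene of sarcolipin, a calcium pump inhibitor of atrial muscle cells, so other cells of the atrium are not its target. Nothing in the labels ties each library to an animal of its own, and the p-values therefore reflect only how these libraries vary, which may be technical. In whole atria, fewer cells of a type and less RNA per cell cannot be told apart.

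The libraries held 69.6 to 78.8 M gene counts in mutants and 58.5 to 60.9 M in controls. Levels below are CPM, the counts scaled to a common library total (TMM), and levels compared between genes are CPM per kilobase of the deposited gene length. Nkx2-5 had 5.79 and 5.21 CPM in mutants 5 and 7, against 76.7, 72.0 and 71.3 CPM in controls 2, 4 and 6, a log2 fold change of −3.74 ± 0.09 (SE). Sln had 535 and 528 CPM in mutants, against 625, 596 and 568 CPM in controls (log2 −0.17 ± 0.07 SE, edgeR adjusted p = 0.251). Judged by Xist and Ddx3y, mutant 5 and control 4 were male and the other libraries female.

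Most of the family did not pass the test, and the members that passed differed in the size of their change. Adcy8 (12.3-fold), Pde10a (2.04-fold), Pde3b (1.45-fold) and Gucy1b3 (1.29-fold) were higher in mutant atria. Pde1c was lower, at 0.255 times the control level. Enough counts for a test were present in 34 of the 44 rows, and at an adjusted p under 0.05 (edgeR's quasi-likelihood test, adjusted over 17835 genes) 4 were higher and 1 was lower. Over all tested genes 3.02% were higher and 3.57% lower, or 6.58% in either direction, against 14.7% of the tested members. The groups did not overlap in 14 of the 34 members (41.2%), close to the 37.9% of all tested genes. The median log2 fold change of the 34 was 0.07, beside 0.01 for all tested genes. By role, 2 of 18 tested catalytic phosphodiesterase rows were higher and 1 was lower, 1 of 9 adenylate cyclases was higher and 1 of 4 guanylate cyclase subunits was higher. Among the 29 members that did not pass, 26 had a log2 fold change within 0.5 of 0, and 6 had an unadjusted p under 0.05. With the members that passed, 11 of the 34 had an unadjusted p under 0.05, beside 20.8% of all tested genes. In the authors' deposited table the same 5 members had an adjusted p under 0.05.

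**Figure D1:**
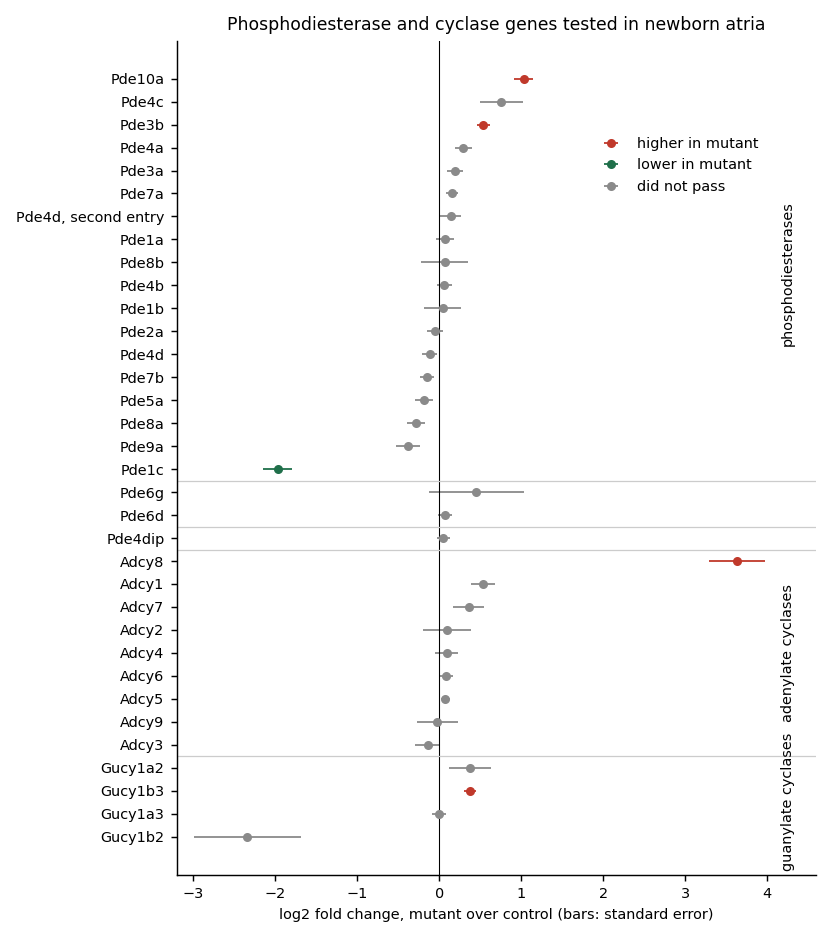
Log2 fold change, mutant over control, of the 34 tested members, grouped by role, with bars for the standard error. Adcy8, Pde10a, Pde3b and Gucy1b3 lie to the right of 0 and Pde1c to the left, past the threshold, and most others lie within 0.5 of 0; Gucy1b2, far to the left, rests on few counts and did not pass.

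**Figure D2:**
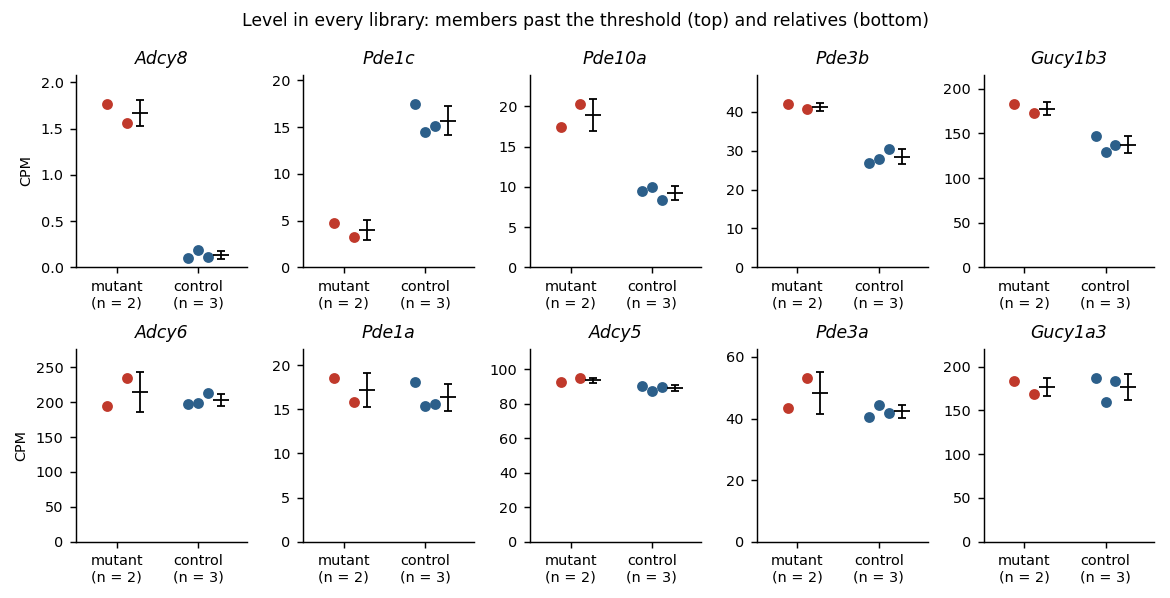
CPM in every mutant (left) and control (right) library for the 5 members past the threshold (top row) and 5 relatives of theirs (bottom row), with the mean and SD beside the points. No mutant library overlaps a control in the top row, while the groups overlap in 4 of the 5 panels of the bottom row, Adcy5 being the exception.

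The Pde1 family is stimulated by calcium and calmodulin, and its Pde1c product hydrolyses cyclic AMP and cyclic GMP alike. Pde1c (ENSMUSG00000004347; mm9 chromosome 6, 56022200 to 56319551, minus strand) had 4.74 and 3.24 CPM in mutants 5 and 7, against 17.5, 14.5 and 15.1 CPM in controls 2, 4 and 6. Every mutant library lay far under every control library. The mean was 3.99 ± 1.06 CPM in mutants and 15.7 ± 1.57 CPM in controls (SD, n = 2 and 3), so the mutant level was 0.255 times the control level (log2 −1.97 ± 0.18 SE, edgeR adjusted p = 0.00102). The other family members did not follow it. Pde1a, whose product prefers cyclic GMP, had 18.5 and 15.9 CPM in mutants, against 18.1, 15.4 and 15.6 CPM in controls (log2 0.07 ± 0.11 SE, edgeR adjusted p = 0.791). Pde1b had a log2 fold change of 0.04 ± 0.23 (SE). By level per kilobase, Pde1c made up 11.8% and 8.98% of the family's transcripts in mutants, against 33.1%, 30.9% and 33.4% in controls. The ratio of Pde1c to Pde1a was 0.162 and 0.129 in mutants, against 0.610, 0.598 and 0.611 in controls. It was 1 of 3 ratios formed after their values were seen. An exact two-sided permutation test of each gave p = 0.2 (0.2 after adjustment over the 3). As run here, with the p of a single direction doubled, the test cannot give less with 2 against 3 libraries.

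**Figure D3:**
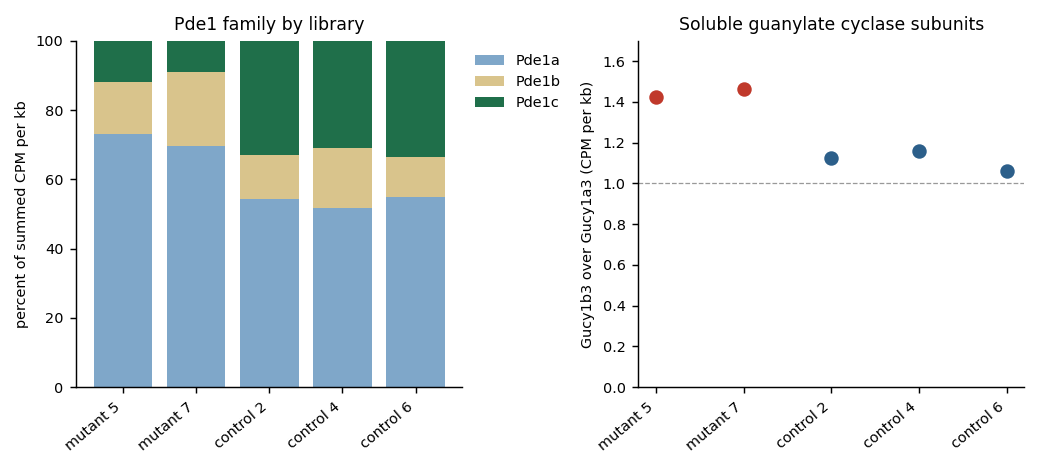
Left, the share of each Pde1 gene in the family's summed CPM per kilobase, by library. Right, the ratio of the guanylate cyclase subunits Gucy1b3 and Gucy1a3, each in CPM per kilobase, by library, with a dashed line at equality. Pde1c takes 8.98% to 11.8% in mutants and 30.9% to 33.4% in controls, and the subunit ratio is 1.43 and 1.46 in mutants and 1.06 to 1.16 in controls.

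RefSeq promoter windows of GRCm38.p6, from 250 bases before to 50 after a start, were found for 33 of the 43 symbols, and among the 5 members past the threshold for Pde1c, Pde10a and Gucy1b3, which are shown here and with those genes. A pair of motifs was searched on both strands. The first was AAGTG, the core of the Nkx2-5 binding site. The other was TGACG, which is part of the cyclic AMP response element, and no base was counted for both in the windows shown. AAGTG was present in 46.4% of all 32851 mouse windows and in 32 of the 60 windows of the matched symbols, and TGACG in 20.8% of all and in 11 of the 60. All 3 windows of Pde1c held AAGTG on 1 of the strands, in capitals below, and none held TGACG. A match says only that these letters are present.
Pde1c promoter a, chr6:56362343-56362642, minus strand: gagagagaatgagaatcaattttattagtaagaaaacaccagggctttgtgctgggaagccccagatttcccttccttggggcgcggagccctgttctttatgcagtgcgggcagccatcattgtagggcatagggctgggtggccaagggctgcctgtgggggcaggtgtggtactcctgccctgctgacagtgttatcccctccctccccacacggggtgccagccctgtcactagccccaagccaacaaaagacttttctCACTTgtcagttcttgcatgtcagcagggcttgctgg
Pde1c promoter b, chr6:56369585-56369884, minus strand: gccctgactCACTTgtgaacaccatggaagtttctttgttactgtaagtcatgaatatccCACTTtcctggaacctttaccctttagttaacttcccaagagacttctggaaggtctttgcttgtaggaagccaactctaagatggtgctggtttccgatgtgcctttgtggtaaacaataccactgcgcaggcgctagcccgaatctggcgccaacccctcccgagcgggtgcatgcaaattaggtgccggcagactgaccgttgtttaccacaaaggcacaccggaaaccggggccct
Pde1c promoter c, chr6:56362761-56363060, minus strand: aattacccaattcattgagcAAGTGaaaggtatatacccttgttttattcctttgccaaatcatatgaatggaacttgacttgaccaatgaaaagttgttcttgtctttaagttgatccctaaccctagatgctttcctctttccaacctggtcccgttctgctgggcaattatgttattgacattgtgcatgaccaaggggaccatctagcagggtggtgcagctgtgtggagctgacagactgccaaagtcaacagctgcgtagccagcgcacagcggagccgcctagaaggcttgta

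Pde10a, a phosphodiesterase of both cyclic nucleotides best known from striatal neurons, was higher in mutants. The gene (ENSMUSG00000023868; mm9 chromosome 17, 8949910 to 9174521, plus strand) had 17.5 and 20.3 CPM in mutants 5 and 7, against 9.45, 9.98 and 8.35 CPM in controls 2, 4 and 6. Both mutants stood above all controls, with means of 18.9 ± 2.00 CPM in mutants and 9.26 ± 0.83 CPM in controls (SD, n = 2 and 3). The mutant level was 2.04 times the control level (log2 1.03 ± 0.12 SE, edgeR adjusted p = 0.00197). Even so, Pde10a made up 1.62% and 1.77% of the summed phosphodiesterase level per kilobase in mutants, against 0.884%, 0.936% and 0.783% in controls. Pde10a had the longest deposited length of the members, 24991 bases, and these shares depend on it. Its 2 promoter windows, shown for comparison with those of Pde1c, held neither motif.
Pde10a promoter a, chr17:8801495-8801794, plus strand: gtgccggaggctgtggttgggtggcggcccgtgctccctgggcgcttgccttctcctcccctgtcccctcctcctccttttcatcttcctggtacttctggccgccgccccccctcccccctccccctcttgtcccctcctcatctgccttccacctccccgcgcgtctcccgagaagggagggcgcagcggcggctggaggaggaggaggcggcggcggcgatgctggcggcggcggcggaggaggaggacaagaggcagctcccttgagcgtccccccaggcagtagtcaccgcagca
Pde10a promoter b, chr17:8849735-8850034, plus strand: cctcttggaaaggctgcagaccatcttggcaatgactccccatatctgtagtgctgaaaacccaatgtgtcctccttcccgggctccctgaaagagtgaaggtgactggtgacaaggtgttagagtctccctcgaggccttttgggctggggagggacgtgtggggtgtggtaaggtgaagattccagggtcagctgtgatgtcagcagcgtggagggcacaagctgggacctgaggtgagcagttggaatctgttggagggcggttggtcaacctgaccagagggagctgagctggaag

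The Pde3 family hydrolyses cyclic AMP and is inhibited by cyclic GMP, and its inhibitors increase the force of heart muscle. Pde3b (ENSMUSG00000030671; mm9 chromosome 7, 121559065 to 121679762, plus strand) had 42.0 and 40.6 CPM in mutants, against 26.9, 27.9 and 30.5 CPM in controls. The groups did not overlap, and the means were 41.3 ± 0.99 CPM in mutants and 28.4 ± 1.87 CPM in controls (SD, n = 2 and 3; log2 0.54 ± 0.08 SE, edgeR adjusted p = 0.00686). Pde3a had 43.4 and 53.1 CPM in mutants, against 40.5, 44.5 and 42.0 CPM in controls. Mutant 5 lay among the controls, and Pde3a did not pass (log2 0.19 ± 0.10 SE, edgeR adjusted p = 0.315). Without mutant 5, where 9.33% of all tested genes passed, its edgeR adjusted p was 0.0430 and its log2 fold change 0.33, and without mutant 7 they were 0.890 and 0.03. Together the Pde3 genes made up 34.6% and 36.5% of the summed phosphodiesterase level per kilobase in mutants, against 28.6%, 31.1% and 30.6% in controls. The share of Pde3b within the pair was 37.7% and 32.4% in mutants, against 29.4%, 28.2% and 31.3% in controls. The ratio of Pde3b to Pde3a was 0.606 and 0.479 in mutants, against 0.417, 0.393 and 0.456 in controls.

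The short second Pde4d entry, which had 4.98 CPM per kilobase in mutants and 4.53 in controls, was left out of the order. Pde3a had the highest level of the other phosphodiesterases, with a mean of 9.55 CPM per kilobase over the 5 libraries. Pde2a (5.66), Pde4b (4.85), Pde3b (4.50) and Pde4a (2.71) followed. This order and the shares depend on the deposited lengths, 4680 bases for Pde3a, 8735 for Pde2a and 17461 for Pde4b. In GENCODE vM21 the exons of Pde3a cover 12737 bases and those of the Pde2a entry 4139. By CPM without length, Pde4b lay above Pde3a and Pde2a in every library. In mutants the levels of Pde2a (5.53 ± 0.89), Pde3b (5.53 ± 0.13) and Pde4b (4.96 ± 0.66) lay within their spread of each other. In controls Pde2a (5.75 ± 0.08) and Pde4b (4.77 ± 0.29) stood apart from Pde3b (3.81 ± 0.25; all SD, CPM per kilobase). Pde2a, which cyclic GMP stimulates, had 42.8 and 53.8 CPM in mutants, against 50.6, 50.6 and 49.4 CPM in controls (log2 −0.06 ± 0.10 SE, edgeR adjusted p = 0.811). In the later GENCODE vM21 annotation its entry is listed as Gm45837 and shares 3955 exonic bases with the entry named Pde2a there. The deposited table gave a single Pde2a row. Pde4b, of the cyclic AMP-specific family that rolipram inhibits, had 94.9 and 78.5 CPM in mutants, against 85.8, 77.4 and 86.8 CPM in controls (log2 0.06 ± 0.09 SE). Both genes overlapped between the groups.

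**Figure D4:**
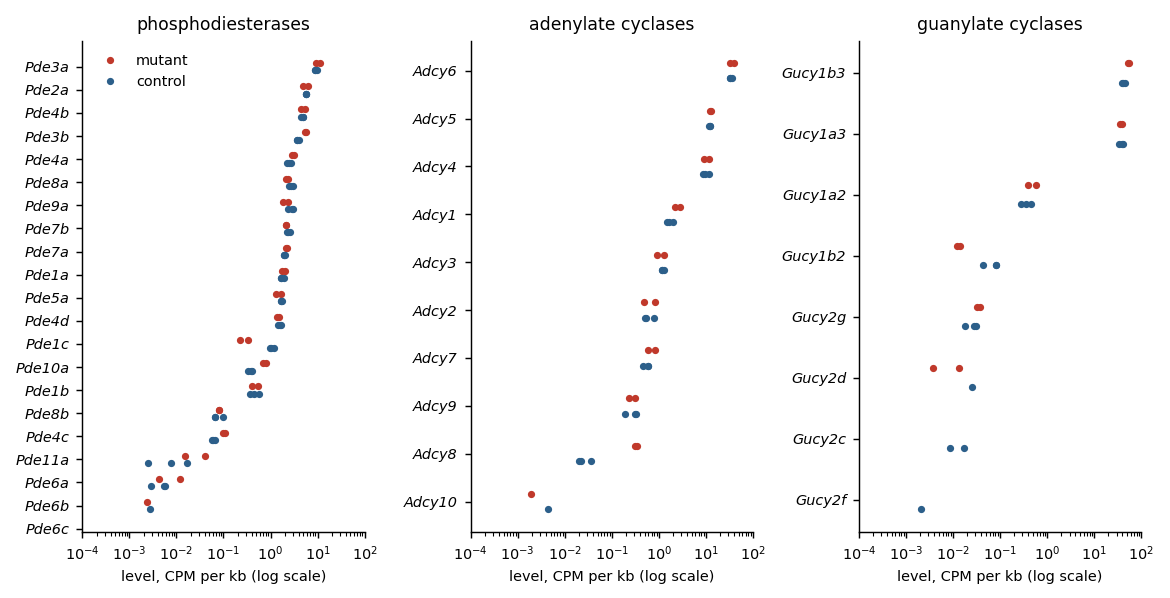
Level per kilobase in every library on a log axis, for catalytic phosphodiesterases, adenylate cyclases and guanylate cyclases, each ordered by the mean over the 5 libraries, with mutant libraries above control libraries in each row. Libraries at 0 and the short second Pde4d entry are not drawn. Each class is led by a few genes, such as Adcy6 and the pair Gucy1b3 and Gucy1a3, and Adcy8 lies near the bottom of its class in the control libraries.

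None of the other phosphodiesterases with enough counts passed. In the Pde4 family the largest value was that of Pde4c, at 1.17 and 1.05 CPM in mutants and 0.712, 0.655 and 0.601 CPM in controls (log2 0.76 ± 0.26 SE, edgeR adjusted p = 0.141). Pde4a followed (log2 0.29 ± 0.10 SE, edgeR adjusted p = 0.142), and the groups did not overlap in either gene. For Pde4d the main entry gave log2 −0.12 ± 0.09 (SE), and the short second entry (mm9 chromosome 13, 110744676 to 110744864) gave 0.14 ± 0.13. The signs of these entries of 1 gene differed, and neither value exceeded its error by much. Among the enzymes of cyclic GMP, Pde9a gave log2 −0.38 ± 0.15 (SE, edgeR adjusted p = 0.182) and Pde5a, the target of sildenafil, gave −0.19 ± 0.11 (SE). Of the cyclic AMP enzymes, Pde8a had −0.28 ± 0.11, Pde8b 0.06 ± 0.29, Pde7a 0.15 ± 0.08 and Pde7b −0.16 ± 0.09 (SE). The summed level of the 21 catalytic phosphodiesterase genes, without the second Pde4d entry, was 43.1 and 45.9 CPM per kilobase in mutants, against 42.7, 42.6 and 42.7 in controls.

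Adcy8 had the largest log2 fold change of the 34 tested members. It encodes a membrane adenylate cyclase that calcium and calmodulin stimulate, and it has been described in sinoatrial node cells of the rabbit. Adcy8 (ENSMUSG00000022376; mm9 chromosome 15, 64530695 to 64752667, minus strand) had 138 and 107 counts in mutants 5 and 7, against 6, 11 and 7 counts in controls 2, 4 and 6. These are 1.77 and 1.57 CPM in mutants, against 0.102, 0.185 and 0.114 CPM in controls. Reads were thus scarce in every control library and present in both mutants, which lay far above all controls. The fitted difference was 12.3-fold (log2 3.63 ± 0.34 SE, edgeR adjusted p = 0.000957). In absolute terms the gene stayed a minor one, at 0.597% and 0.445% of the summed adenylate cyclase level per kilobase in mutants, against 0.0349%, 0.0602% and 0.0367% in controls.

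Adcy1, which calcium and calmodulin also stimulate, had 35.8 and 44.8 CPM in mutants, against 24.1, 27.0 and 32.6 CPM in controls. Both mutants lay above all controls, but Adcy1 did not pass (log2 0.53 ± 0.15 SE, edgeR adjusted p = 0.0864). It passed with DESeq2's Wald test (adjusted p = 0.00907), which called 11.2% of all tested genes, and in edgeR without control 6, the highest control (adjusted p = 0.0401). It did not pass without control 2 (edgeR adjusted p = 0.188), control 4 (0.244) or either mutant, and without mutant 7 its log2 fold change was 0.35 (adjusted p = 0.324). Its level per kilobase was 2.50 ± 0.40 in mutants and 1.73 ± 0.27 in controls (SD, n = 2 and 3), the fourth highest of the class.

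Adcy6 and Adcy5, the main cyclases of heart muscle, are inhibited by calcium and by the inhibitory G proteins. Adcy6 had 194 and 234 CPM in mutants, against 197, 199 and 213 CPM in controls (log2 0.08 ± 0.09 SE, edgeR adjusted p = 0.689). Adcy5 had 92.7 and 94.8 CPM in mutants, against 90.1, 87.4 and 90.0 CPM in controls (log2 0.07 ± 0.06 SE, edgeR adjusted p = 0.547). The mutant libraries stood above the controls for Adcy5 by a few percent and on both sides of them for Adcy6. Together both genes made up 76.2% and 73.9% of the summed adenylate cyclase level per kilobase in mutants, against 77.6%, 73.7% and 77.1% in controls. Adcy4, which the beta and gamma subunits of G proteins stimulate, came next and had 34.9 and 45.0 CPM in mutants, against 33.6, 43.2 and 35.8 CPM in controls (log2 0.09 ± 0.14 SE). Adcy6 had the highest mean level (34.5 CPM per kilobase over the 5 libraries), followed by Adcy5 (12.3) and Adcy4 (10.2), an order that held in every library. The remaining tested cyclases, Adcy2, Adcy3, Adcy7 and Adcy9, had log2 fold changes between −0.14 (Adcy3) and 0.36 (Adcy7), none of which passed. Adcy3 shares 1380 exonic bases with Cenpo on the opposite strand in GENCODE vM21, and Adcy6 shares 605 with Gm29331. No source used here states if reads were counted by strand.

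Soluble guanylate cyclase, the nitric oxide receptor, is a dimer of an alpha and a beta subunit. Gucy1b3 encodes its main beta subunit and Gucy1a3 its main alpha subunit, and in the deposited spans they are neighbours on chromosome 3 (mm9), on the minus strand, 20120 bases apart. Gucy1b3 (ENSMUSG00000028005; 81837177 to 81878496) had 183 and 173 CPM in mutants 5 and 7, against 147, 129 and 137 CPM in controls 2, 4 and 6. Gucy1a3 (81898617 to 81923067) had 184 and 169 CPM in mutants, against 187, 159 and 184 CPM in controls. Gucy1b3 was higher in both mutants than in any control, and Gucy1a3 overlapped between the groups. The log2 fold change of Gucy1b3 was 0.37 ± 0.07 (SE, edgeR adjusted p = 0.0204), and that of Gucy1a3 was −0.00 ± 0.08 (SE, edgeR adjusted p = 0.991). Gucy1b3 no longer passed when control 4 (edgeR adjusted p = 0.0914) or control 6 (0.0740) was left out, where 3.01% and 4.22% of all tested genes passed. Its log2 fold change stayed between 0.32 and 0.42 over the settings tried. The ratio of beta to alpha subunit, per kilobase, was 1.43 and 1.46 in mutants, against 1.13, 1.16 and 1.06 in controls. Per kilobase of deposited length Gucy1b3 lay above Gucy1a3 in every library, while in CPM it did so only in mutant 7. These genes made up at least 99.3% of the summed level of the 8 Gucy genes of the rule in every library. That sum leaves out the receptor cyclases Npr1 and Npr2, whose symbols the rule does not match. Npr1 had a mean of 7.39 CPM per kilobase in mutants and 7.23 in controls, and Npr2 6.22 and 5.23. The promoter window of Gucy1b3, listed by RefSeq as Gucy1b1, held 1 TGACG, in capitals below and on the other strand, and no AAGTG.
Gucy1b3 promoter, chr3:82074662-82074961, minus strand: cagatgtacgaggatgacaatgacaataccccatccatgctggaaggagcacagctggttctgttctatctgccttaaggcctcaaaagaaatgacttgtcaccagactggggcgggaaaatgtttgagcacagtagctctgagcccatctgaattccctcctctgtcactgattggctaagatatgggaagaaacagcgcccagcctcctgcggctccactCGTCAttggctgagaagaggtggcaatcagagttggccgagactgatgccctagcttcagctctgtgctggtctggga

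The other soluble subunits were scarce. Gucy1a2, the second alpha subunit, had 2.04 and 3.00 CPM in mutants, against 1.51, 1.92 and 2.40 CPM in controls (log2 0.37 ± 0.26 SE, edgeR adjusted p = 0.481). Gucy1b2 had 3 and 3 counts in mutants, against 8, 15 and 16 counts in controls. Both mutants were thus no higher than the 3 counts that a count of 0 allows. The ratio of the summed Gucy1b2 counts, mutant over control, was 0.189, with a 95% exact interval of 0.0655 to 0.450. That interval covers counting error only, and the gene did not pass (edgeR adjusted p = 0.0714).

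Another 10 members had too few counts for a test. They were Adcy10, Gucy2c, Gucy2d, Gucy2f, Gucy2g, Pde11a, Pde6a, Pde6b, Pde6c and Pde6h. None exceeded 21 counts in any library, and Pde6c had 0 counts in all 5. A count of 0 allows up to 3 counts, or 0.0384 and 0.0439 CPM in mutants 5 and 7 and 0.0509, 0.0504 and 0.0487 CPM in controls 2, 4 and 6, counting error only. All 4 receptor-type Gucy2 genes of the rule, among them the intestinal guanylin receptor Gucy2c, were in this group, as were the photoreceptor genes Pde6a, Pde6b and Pde6c. Pde11a had the highest single value there, with 21 and 7 counts in mutants, against 3, 1 and 7 counts in controls, and the groups overlapped. Of the accessory subunits, Pde6d, which also chaperones prenylated proteins, was well expressed (57.3 and 47.9 CPM in mutants, against 50.7, 52.0 and 47.6 CPM in controls) and did not pass. Pde6g did not pass either (log2 0.45 ± 0.58 SE). Pde4dip had 254 and 257 CPM in mutants, against 250, 226 and 265 CPM in controls (log2 0.05 ± 0.08 SE).

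Other genes of cyclic nucleotide signalling were counted in 7 lists of 53 genes. Of the 46 with enough counts, 1 was higher in mutants (Akap7) and 1 was lower (Mrvi1), beside 3.02% and 3.57% of all tested genes. Mrvi1 encodes a partner of the inositol trisphosphate receptor that protein kinase G phosphorylates. It had 17.1 and 17.3 CPM in mutants, against 35.0, 27.5 and 33.9 CPM in controls. The mutant libraries lay close together under all controls (log2 −0.90 ± 0.11 SE, edgeR adjusted p = 0.00313). Akap7, an anchor of protein kinase A, had 27.7 and 27.5 CPM in mutants, against 22.6, 21.6 and 22.9 CPM in controls (log2 0.31 ± 0.07 SE, edgeR adjusted p = 0.0480). It kept its call in 4 of the 12 alternative fits at the same threshold, and in none that left out a library, with edgeR adjusted p up to 0.164.

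In each of the other lists the gene with the smallest p did not pass. It was Gnai2, an inhibitory G protein subunit, among the G protein genes, at 450 and 410 CPM in mutants and 365, 358 and 356 CPM in controls (log2 0.26 ± 0.07 SE, edgeR adjusted p = 0.0731). Among the protein kinase A genes it was the inhibitor Pkia (log2 −0.21 ± 0.06 SE, edgeR adjusted p = 0.0852). Among receptor cyclases and nitric oxide synthases it was Npr2, the receptor of C-type natriuretic peptide (log2 0.25 ± 0.08 SE, edgeR adjusted p = 0.129). In the CREB list it was Crem (log2 −0.20 ± 0.08 SE, edgeR adjusted p = 0.202), and among channels and exporters Cngb1 (log2 0.98 ± 0.46 SE, edgeR adjusted p = 0.277), which had 0.359 and 0.322 CPM in mutants and 0.153, 0.118 and 0.244 CPM in controls.

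**Figure D5:**
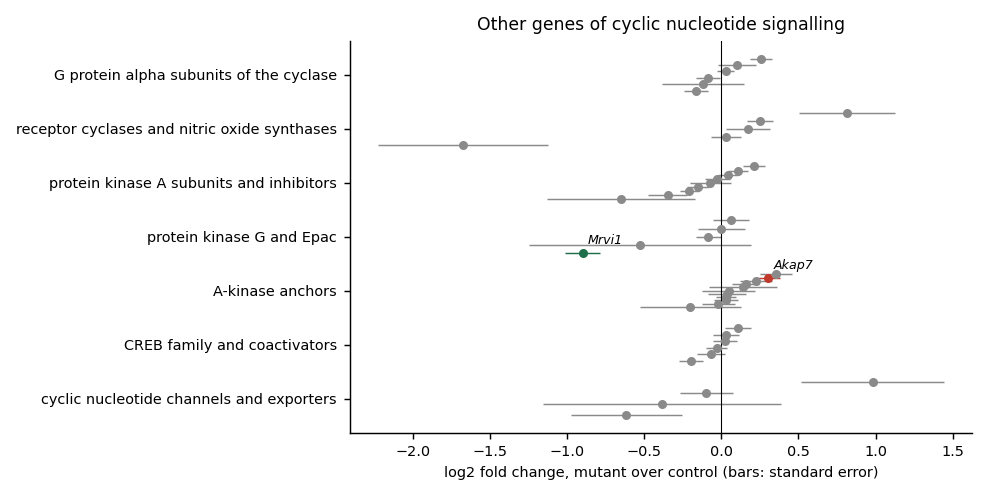
Log2 fold change, mutant over control, of the 46 tested genes in the 7 lists of cyclic nucleotide signalling, with bars for the standard error and 1 band per list. Mrvi1 (lower) and Akap7 (higher) are the named points past the threshold; the widest bars belong to genes with few reads.

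Markers of other cell types also differed between the groups. Acta2 of the smooth muscle list was higher (1 of 5 passed), and the list summed to 2184 and 1731 CPM in mutants, against 754, 875 and 741 CPM in controls. Without Acta2 the other 4 genes summed to 491 and 487 CPM in mutants, against 319, 443 and 375 CPM in controls. Of these, Myh11 had 29.7 and 27.7 CPM in mutants, against 6.51, 9.14 and 2.03 CPM in controls. It did not pass (log2 2.29 ± 0.67 SE, edgeR adjusted p = 0.188). Neither did Tagln (log2 0.51 ± 0.35 SE), Cnn1 (0.28 ± 0.22) or Smtn (0.10 ± 0.06). In the epicardial list 4 of 5 were lower, with 648 and 647 CPM in mutants, against 1113, 1058 and 942 CPM in controls. In the fibroblast list Dcn was lower (1 of 5), with 3895 and 3851 CPM in mutants, against 5820, 4904 and 4914 CPM in controls. The endothelial list summed to 1198 and 1470 CPM in mutants, against 1025, 1058 and 1087 CPM in controls (Tie1 higher, 1 of 5). In the skeletal muscle list Pvalb and Actn3 were lower (2 of 5), with 91.8 and 53.8 CPM in mutants, against 95.0, 68.4 and 99.7 CPM in controls. Hey2 of the ventricular list was higher (1 of 5, log2 2.59 ± 0.10 SE). Myl3 (log2 −2.57 ± 0.47 SE), Myl2 (−1.74 ± 1.17) and Irx4 (−1.49 ± 0.67) had negative log2 fold changes and did not pass. Myl3 had 22.3 and 15.4 CPM in mutants, against 124, 67.2 and 145 CPM in controls. The list summed to 2692 and 2316 CPM in mutants, against 2215, 1935 and 2513 CPM in controls. Most of that sum was Myh7, which did not pass (log2 0.24 ± 0.11 SE). Blood cell lists were higher in both mutants than in any control. The erythroid list (Hba-a1 higher, 1 of 5) summed to 1413 and 1438 CPM in mutants, against 1026, 922 and 1190 CPM in controls. The leukocyte list (Cd52 higher, 1 of 5) summed to 131 and 134 CPM in mutants, against 105, 105 and 122 CPM in controls. None of the 5 sinus node markers passed, and their sum was 159 and 196 CPM in mutants, against 133, 140 and 89.3 CPM in controls. Hcn4 (log2 1.14 ± 0.40 SE), Tbx3 (0.86 ± 0.32) and Shox2 (0.51 ± 0.29) were higher in both mutants than in any control. Isl1 (−0.93 ± 0.57) and Tbx18 (−0.02 ± 0.19) overlapped between the groups. The atrial muscle list summed to 34988 and 32716 CPM in mutants, against 37816, 36834 and 36658 CPM in controls (Nppa lower, 1 of 5), the highest sum of the 13 lists in every library. Neuronal and Schwann cell markers summed to 20.9 and 21.6 CPM in mutants, against 20.1, 17.7 and 15.1 CPM in controls, and none of the 5 passed. Lung and thymocyte markers summed to less than 2 CPM in every library. No marker of the 13 lists was at 0 in every library. The part of these cell types in the changes of the members was not tested.

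Since no mutant overlapped a control for these 5 members, their direction within a sex was given, and only the sizes are described. Between the male libraries, 1 mutant and 1 control, the log2 ratio of CPM was 3.26 for Adcy8, −1.62 for Pde1c, 0.81 for Pde10a, 0.59 for Pde3b and 0.51 for Gucy1b3. Between the female libraries, 1 mutant and 2 controls, it was 3.86 for Adcy8, −2.33 for Pde1c, 1.19 for Pde10a, 0.50 for Pde3b and 0.28 for Gucy1b3. With 1 mutant library of each sex these ratios are given without a test, and an edgeR fit with sex as a covariate, in which 5.51% of all tested genes passed, kept all 5 calls. None of these 5 genes shares exonic bases with another gene in GENCODE vM21.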

How the data were processed

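Atrial RNA was measured in 2 mutant and 3 control polyA RNA libraries, made from 250 ng of total RNA with a TruSeq kit, per the labels' protocols. Raw counts for each gene in each library were deposited by the authors. Per the submitters' processing notes the build was mm9 and the tools were TopHat2 2.0.4, TopHat, HTSeq 0.5.4p3 and DESeq, with no role given for each. Per the file headers the table also holds RPKM pooled by the authors to 1 value per group, the authors' log2 ratio, and the authors' p-value and adjusted p-value, which were used only for the comparison with the authors' calls. Reads in no annotated gene and ambiguous reads, 3.97% to 6.03% and 2.31% to 3.18% of all reads, were left out.

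Counts were filtered with filterByExpr (minimum count 10, minimum total 15), scaled by TMM and tested with edgeR 4.0.16 (robust quasi-likelihood, two-sided, R 4.3.3) over 17835 genes with Benjamini-Hochberg adjustment at 0.05. Standard errors were taken as the size of the log2 fold change over the root of F. The step was tested on simulated data in which all genes had the same spread and only well covered genes had large changes. That simulation does not cover genes with few reads, such as Adcy8, or changes as small as that of Gucy1b3. Deposited spans equal the coding span within 3 bases for 33 of 43 members compared with GENCODE vM21, so they may leave out untranslated exons. Pde1c (297352 bases deposited, 496554 in vM21) and Pde10a (224612 and 454635) are among the exceptions, with deposited spans shorter than the coding span, and spans were not compared with the GRCm38.p6 promoters. Values in every library are given for members and list genes past the threshold. They are also given for the 3 members with the highest level per kilobase in each class. In each list where no gene passed, the gene with the smallest p is given by its log2 fold change. For Gnai2 and Cngb1 the values in every library are added. Others are named where a count or a setting singles them out, after their values were seen. The members and lists were chosen with earlier results of these data known. Alternatives were other scalings, filters, DESeq2 1.42.0, limma-voom (limma 3.58.1), sex as a covariate, a threshold of 0.01 and leaving out each library.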

Additional observations from a re-analysis of the deposited data

How the results depend on the processing

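Adcy8, Pde10a, Pde1c, Pde3b and Mrvi1 kept their call in the 12 alternative fits and at a threshold of 0.01, with log2 fold changes of 3.47 to 3.92, 0.91 to 1.13, −2.28 to −1.73, 0.50 to 0.59 and −1.01 to −0.83. The number of members higher was 3 to 5 and the number lower was 1 throughout; Gucy1b3 was lost without control 4 or control 6 and at a threshold of 0.01, Adcy1 was gained with DESeq2 and without control 6, and Pde3a without mutant 5. The number of list genes higher was 0 with library totals alone, 2 without a filter (Akap12 and Akap7), 4 with DESeq2 (Akap12, Akap7, Gnai2 and Prkar1a), 0 with limma-voom, 0 at a threshold of 0.01 and 0 to 1 when 1 library was left out, where Akap7 was never called (Nos3 was, without mutant 5, and Gnai2, without mutant 7). With sex as a covariate it was 1, but the gene was Akap12. The number lower was 3 with DESeq2 (Mrvi1, Nos1 and Pkia) and 1 to 2 when 1 library was left out (Abcc5 added without mutant 7). DESeq2 called 11.2% of all tested genes, against 6.58% in edgeR, and the cause was not tested. Over the 34 members, Mrvi1 and Akap7, 414 values stayed on their side of the threshold, 10 lost and 3 gained their call, and 22 changed sign, all of members that did not pass. No paired analysis was possible because the groups share no replicate number.

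With 2 mutant libraries the exact two-sided permutation test used for the ratios cannot give a p under 0.2, so calls rest on the spread shared across genes. Adcy8 and Gucy1b2 rest on few reads in 1 group. Where a mutant library was left out, the other was assumed to vary like the controls.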
